A study of Rattus norvegicus with 16 samples.

Results

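Wnt signalling genes were examined in rat right ventricle: the Wnt ligands, their Frizzled receptors (Fzd) and the secreted inhibitors of the Sfrp (secreted frizzled-related protein) and Dkk (Dickkopf) families. Members were taken by a rule on gene names, set with earlier results of these data known. The rule takes every gene with a single-symbol probe set whose symbol starts with Wnt, Fzd, Sfrp or Dkk followed by a digit. This gave 33 of the 17245 genes measured, namely 18 Wnt, 8 Fzd, 4 Sfrp and 3 Dkk genes, each with 1 probe set. Male Wistar rats of 160 to 180 g, of an age the labels do not give, supplied RNA from the wall of the right ventricle. The animals had a sham operation or banding of the pulmonary artery, which narrows the outflow of the right ventricle and loads it with pressure, but no label ties an operation to a sample. The labels divide the 16 arrays into 7 CON (the controls), 5 RVF+ and 4 RVF, and do not spell the last names out, so they are used as given. Array numbers are those of the titles: 1 to 7 are CON, 8 to 12 RVF+ and 13 to 16 RVF.

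Wnt proteins are lipid-modified secreted ligands that bind the cysteine-rich domain of Frizzled receptors. With the co-receptors Lrp5 and Lrp6 they stabilise beta-catenin, which drives transcription with TCF/LEF factors, while ligands such as Wnt5a and Wnt11 are best known for beta-catenin-independent signals through calcium and cell polarity. Sfrp proteins carry a Frizzled-like domain and bind Wnt ligands outside the cell, and most Dkk proteins block the Lrp co-receptors. In the adult heart the pathway is known to be quiet and to be studied in injury, fibrosis and hypertrophy.

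Values are log2 RMA intensities, on which a difference of 1 is a 2-fold change. The 11 measured markers of ventricular cardiomyocytes were all above background, with a mean log2 intensity between 10.84 and 11.88 on each array. These levels fit heart muscle, but the list was not used to tell the right ventricle from other parts of the heart. RVF+ 8 lay apart: its root mean square distance to the mean of CON was 0.711 over all genes, where the remaining RVF+ and RVF arrays had 0.326 to 0.448. Over the 33 members it did not stand out, at 0.510 against 0.426 to 0.624 for the others. Nothing in the labels states that samples of a group are separate animals, so p-values measure only how far these samples spread, and that spread may be technical.

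No detection calls were used here, so background was read from 1306 olfactory, vomeronasal and taste receptor genes, which are not expected to be active in heart. The 95th percentile of their mean log2 intensity was 3.99, and 70.2% of all genes had a mean above it. Of the members 23 were above that level and 10 were near background. The 10 were 8 Wnt genes (Wnt4, Wnt5b, Wnt7a, Wnt8a, Wnt8b, Wnt10a, Wnt10b and Wnt16), Fzd10 and Dkk1. CON values of these genes ran from 3.14 to 4.46, RVF+ values from 3.15 to 4.15 and RVF values from 2.89 to 4.36. None was called, with differences from CON between -0.31 and 0.16 in RVF+ (smallest adjusted p = 0.0843, limma, Wnt5b) and between -0.16 and 0.19 in RVF (smallest adjusted p = 0.384, limma). Several members lay close to the line: Wnt7b (mean 4.01), Dkk2 (4.02) and Wnt3 (4.03) just above it, and Wnt10a (3.94) and Wnt5b (3.90) just below. Only 14 members had a mean above the 99th percentile of the sensory receptors (4.74), and 9 reached the median of all genes (5.57). Of those 9, Wnt5a was the single ligand, beside 5 Fzd genes (Fzd1, Fzd2, Fzd4, Fzd6 and Fzd8), Sfrp1, Sfrp2 and Dkk3.

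**Figure D1:**
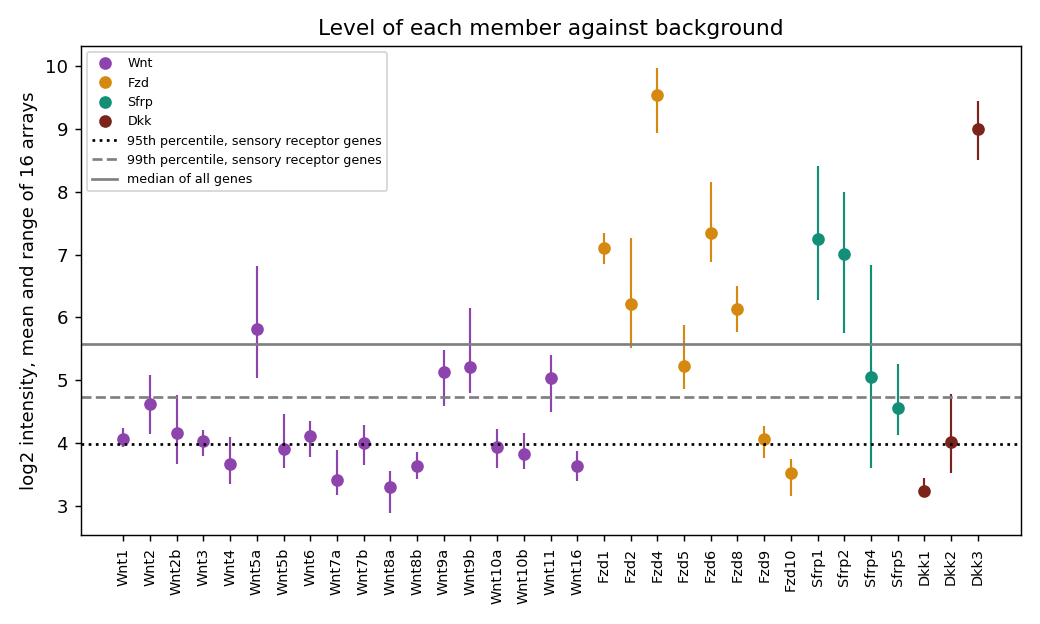
Log2 intensity of the 33 members by subfamily, as the mean (point) and range (line) of 16 arrays. The dotted and dashed lines are the 95th (3.99) and 99th (4.74) percentiles of the sensory receptor genes, the solid line is the median of all genes (5.57), and most Wnt ligands sit near the dotted line; probe sets of different genes differ in affinity, so heights are not relative amounts.

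Across the set, Wnt5a and Sfrp5 were lower and Fzd2, Sfrp1 and Sfrp4 were higher in both RVF+ and RVF than in CON. In RVF+ Fzd6, Sfrp2 and Wnt2 also passed as higher and Wnt11 as lower, and none of these 4 was called between RVF+ and RVF. As a family the members changed about as often as any gene: 9 of 33 (27.3%) were called in RVF+ against CON, with 27.7% of all genes called. For RVF against CON it was 5 of 33 (15.2%), with 17.1% of all genes. Leaving out RVF+ 8, which enters that comparison only through the shared spread, raised the genes called in RVF from 1528 higher and 1429 lower to 2315 and 1932, and the members from 3 higher to 4. By direction, 6 members were higher in RVF+ (18.2%, all genes 14.1%) and 3 lower (9.09%, all genes 13.6%), while in RVF 3 were higher (9.09%, all genes 8.86%) and 2 lower (6.06%, all genes 8.29%). The median member differed from CON by -0.0098 in RVF+ and 0.0070 in RVF, beside -0.012 and -0.0087 over all genes. At an unadjusted p under 0.05 there were 11 members in RVF+ (all genes 38.2%) and 8 in RVF (all genes 29.7%). Of all genes 2423 were higher and 2348 lower in RVF+, and after median centring 1998 and 3004. Both comparisons share the CON arrays.

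Few members had groups that did not overlap. Every RVF+ array lay above every CON array for Fzd2 and Wnt2 (6.06%, all genes 6.96%) and below for Wnt5a (3.03%, all genes 7.63%). Every RVF array lay above every CON array for Fzd2, Fzd6, Sfrp1 and Sfrp4 (12.1%, all genes 9.83%) and below for Sfrp5 and Wnt5a (6.06%, all genes 9.00%). Calls are two-sided limma tests with Benjamini-Hochberg adjusted p under 0.05 over all 17245 genes.

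**Figure D2:**
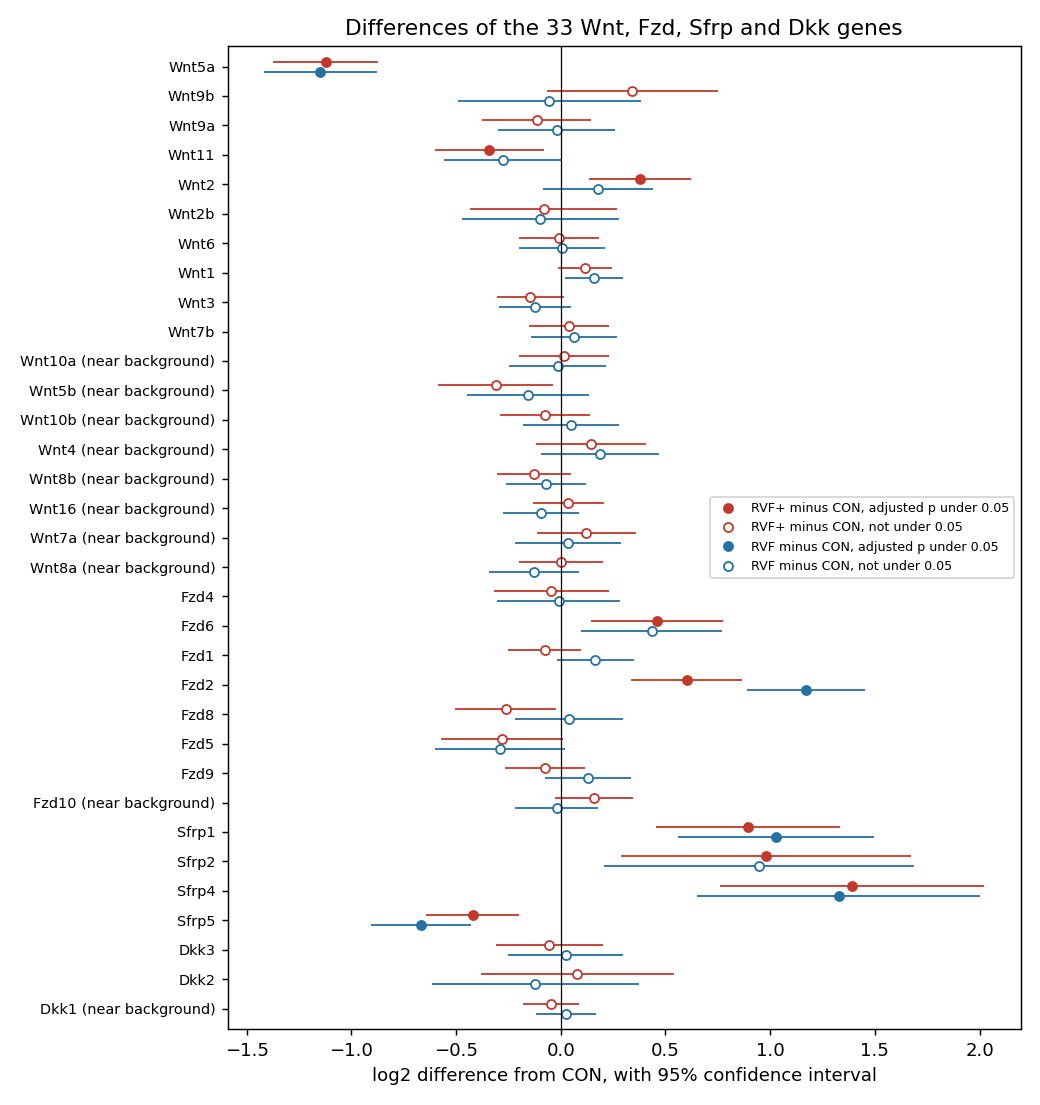
Log2 difference from CON of each member in RVF+ (red) and RVF (blue), with 95% confidence intervals and filled points where the adjusted p was under 0.05. Wnt5a at -1.12 and -1.15 and Sfrp4 at 1.39 and 1.33 lie farthest from 0 in each direction, and most Wnt genes lie close to it.

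Promoters were read for 24 of the 33 members, 5 of them among the 9 called, as the 250 bases before the start in RefSeq (build GRCr8). The promoters of Wnt5a, Sfrp2 and Sfrp5 are shown since they belong to called members that moved in opposite directions. They lie at chr16:3703415-3703664 on the + strand, chr2:171387286-171387535 on the + strand and chr1:250960513-250960762 on the - strand, and are written 5′ to 3′ along the gene. Capitals mark a match to any of 4 short motifs searched on both strands.
Wnt5a: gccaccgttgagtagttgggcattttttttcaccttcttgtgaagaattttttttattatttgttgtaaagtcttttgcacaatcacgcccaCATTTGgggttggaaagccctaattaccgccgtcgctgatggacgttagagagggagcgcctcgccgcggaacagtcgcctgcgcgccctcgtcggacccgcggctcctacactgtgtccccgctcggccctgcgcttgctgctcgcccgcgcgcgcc
Sfrp2: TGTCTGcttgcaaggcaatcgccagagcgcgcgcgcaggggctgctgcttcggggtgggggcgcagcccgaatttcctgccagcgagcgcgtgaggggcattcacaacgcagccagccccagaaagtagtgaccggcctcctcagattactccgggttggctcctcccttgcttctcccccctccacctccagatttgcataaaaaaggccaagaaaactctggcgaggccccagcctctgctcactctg
Sfrp5: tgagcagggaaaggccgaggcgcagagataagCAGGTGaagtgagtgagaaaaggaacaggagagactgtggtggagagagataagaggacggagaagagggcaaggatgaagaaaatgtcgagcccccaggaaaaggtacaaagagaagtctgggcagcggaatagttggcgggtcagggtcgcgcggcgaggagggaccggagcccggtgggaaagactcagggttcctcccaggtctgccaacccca
The TCF/LEF motif CTTTGAT was in 0 of the 24 windows, and in 3.15% of all 33469 RefSeq promoters of that length. The AP-1 motif TGANTCA was in 1 (Wnt16), and in 6.34% of all promoters. The E-box CANNTG was in 13, among them Wnt5a and Sfrp5, and in 65.5% of all promoters. The Smad box CAGACA was in 5, among them Sfrp2, and in 17.2% of all promoters. Capitals in Wnt5a and Sfrp5 are E-boxes, and those in Sfrp2 a Smad box on the other strand, with no overlap between motifs in these windows. These are matches of letters and do not show that a factor binds.

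Among the ligands, Wnt5a, the prototype of beta-catenin-independent signalling and the first of the promoters printed, was the clearest change. In CON its log2 intensity ran from 6.30 to 6.82 with a median of 6.42. In RVF+ it was 5.03, 5.24, 5.05, 5.69 and 5.62 on arrays 8 to 12, and in RVF 5.23, 5.34, 5.41 and 5.23 on arrays 13 to 16. All 9 RVF+ and RVF arrays lay below every CON array, a pattern that 5.90% of all genes showed and no other member did. Wnt5a was thus 2.18-fold lower in RVF+ (-1.12 ± 0.12, log2 difference ± SE here and below, adjusted p = 4.73e-06, limma) and 2.22-fold lower in RVF (-1.15 ± 0.13, adjusted p = 1.05e-05, limma). Without RVF+ 8 the first was -1.05. The difference between RVF+ and RVF was not called (0.027 ± 0.14, 95% interval -0.26 to 0.31).

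Wnt2, a ligand of the beta-catenin branch, was called higher in RVF+, by a small difference close to background. CON ran from 4.14 to 4.63 with a median of 4.49, RVF+ was 4.69, 5.09, 4.94, 4.79 and 4.67, and RVF was 4.43, 4.92, 4.86 and 4.33. Every RVF+ array was above every CON array, while the RVF arrays split, with 2 above and 2 within the CON range. Wnt2 was 1.30-fold higher in RVF+ (0.38 ± 0.12, adjusted p = 0.0214, limma). Leaving out RVF+ 9 (0.32, adjusted p = 0.0648) or RVF+ 10 (0.35, adjusted p = 0.0525) ended the Wnt2 call. In RVF it had 0.18 ± 0.12 (adjusted p = 0.369), and the difference between RVF+ and RVF was not called (0.20, 95% interval -0.082 to 0.48). Its mean of 4.62 lay between the 95th and 99th percentiles of the sensory receptors.

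Wnt11, which like Wnt5a acts mainly outside the beta-catenin branch and is known from heart development, was called lower in RVF+ by a narrow margin. CON ran from 4.89 to 5.41 with a median of 5.37, RVF+ was 4.50, 5.11, 5.00, 5.12 and 4.66, and RVF was 4.84, 5.01, 5.04 and 4.87. The groups overlapped, since CON 2 and CON 3 (4.95 and 4.89) lay among the RVF+ and RVF arrays. The difference was -0.34 ± 0.12 in RVF+ (1.27-fold, adjusted p = 0.0477, limma) and -0.28 ± 0.13 in RVF (adjusted p = 0.169). The RVF+ call of Wnt11 ended without any 1 of CON 1, 4, 5, 6 or 7, RVF+ 8, 10 or 12, or RVF 13, 14, 15 or 16, with adjusted p from 0.0538 (without RVF+ 10) to 0.140 (without RVF+ 8, when it was -0.25). It also ended with trend and robust moderation (0.0532), with array weights (-0.25, adjusted p = 0.142) and with RVF+ and CON alone in the fit (0.0779).

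Other ligands above background were not called. Wnt9b was 4.84, 6.15, 5.80, 5.55 and 4.93 in RVF+, 5.16, 4.91, 5.16 and 5.00 in RVF and 4.79 to 5.48 in CON (median 5.17), so 3 RVF+ arrays lay above the CON range and 2 within it. Its difference of 0.34 ± 0.19 in RVF+ did not pass (adjusted p = 0.210, limma), except with array weights (0.53, adjusted p = 0.0389). Wnt9a was 4.59, 5.37, 5.12, 5.13 and 5.06 in RVF+, 5.05, 5.40, 5.17 and 4.97 in RVF and 4.98 to 5.49 in CON (median 5.07). Its groups overlapped, with a difference of -0.11 ± 0.12 in RVF+ and -0.019 ± 0.13 in RVF.

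The remaining ligands sat just over the background line. Wnt1 was 4.04, 3.99, 4.13, 4.13 and 4.22 in RVF+, 4.20, 4.24, 4.04 and 4.11 in RVF and 3.94 to 4.09 in CON (median 3.98). It had 0.12 ± 0.062 in RVF+ (adjusted p = 0.177) and 0.16 ± 0.066 in RVF (adjusted p = 0.108, limma), with 3 arrays of each group above the CON range. Wnt3 was 3.83, 4.12, 3.79, 4.08 and 3.99 in RVF+, 3.81, 4.08, 4.07 and 3.99 in RVF and 3.99 to 4.22 in CON (median 4.11), with -0.15 and -0.12.

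Wnt2b was 4.09, 4.21, 4.47, 4.19 and 3.66 in RVF+ and 3.88 to 4.55 in CON (median 4.27), with a difference of -0.081. In RVF it was 3.84, 4.76, 3.89 and 3.96, so RVF 14 alone was high. The RVF difference of -0.098 was -0.31 without that array (adjusted p = 0.214), and neither passed. Wnt6 and Wnt7b were flat. Wnt6 was 4.06, 4.25, 4.07, 4.17 and 3.99 in RVF+, 4.12, 4.16, 4.25 and 3.97 in RVF and 3.78 to 4.36 in CON (median 4.11). Wnt7b was 4.15, 4.10, 4.02, 3.80 and 4.02 in RVF+, 4.00, 4.05, 4.12 and 4.00 in RVF and 3.66 to 4.29 in CON (median 3.99). In the RefSeq gene order 3 pairs of members are neighbours, Wnt3 with Wnt9b, Wnt1 with Wnt10b, and Wnt6 with Wnt10a, and no gene of these pairs was called.

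Among the receptors, Fzd2 was the only one of 8 called in both comparisons. In CON it ran from 5.51 to 5.94 with a median of 5.75. RVF+ was 6.67, 6.50, 6.09, 5.97 and 6.41, and RVF was 6.62, 6.88, 7.27 and 6.82. All 9 RVF+ and RVF arrays were above every CON array, as for 5.27% of all genes and no other member. Fzd2 was 1.52-fold higher in RVF+ (0.60 ± 0.13, adjusted p = 0.00169, limma) and 2.25-fold higher in RVF (1.17 ± 0.13, adjusted p = 1.42e-05, limma). Without RVF+ 8 the RVF+ difference was 0.52.

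Fzd6, a receptor known from cell polarity, was called higher in RVF+ with less margin. CON ran from 6.89 to 7.33 with a median of 7.16, RVF+ was 7.01, 7.50, 8.16, 7.60 and 7.48, and RVF was 7.81, 7.42, 7.54 and 7.34. RVF+ 8 lay within the CON range and the other 8 arrays above it. The difference was 0.46 ± 0.15 in RVF+ (1.38-fold, adjusted p = 0.0279, limma) and 0.44 ± 0.16 in RVF (adjusted p = 0.0705, limma). The RVF+ call of Fzd6 ended without RVF+ 10 (0.31, adjusted p = 0.0848), RVF+ 11 (0.0504), or CON 1, 5 or 7 (0.0537, 0.0530 and 0.0530), and with median centring (0.0520), while without RVF+ 8 it was 0.60. The RVF difference of Fzd6 passed without RVF+ 8 (adjusted p = 0.0211) or RVF+ 10 (0.0251), which enter it through the shared spread. It also passed with array weights (0.00909), with CON and RVF alone in the fit (0.00938) and when only the brighter part of the genes, from the median up, was tested (0.0470).

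The receptors Fzd4 and Fzd1 showed no difference from CON that passed. Fzd4, which also serves the ligand norrin in blood vessels, was 8.94, 9.75, 9.96, 9.56 and 9.37 in RVF+, 9.42, 9.80, 9.47 and 9.51 in RVF and 9.43 to 9.68 in CON (median 9.58). RVF+ spread to both sides of CON, and the 95% interval of its difference was -0.32 to 0.23, that of RVF -0.30 to 0.28. Fzd1 was 6.95, 7.04, 6.89, 7.00 and 7.18 in RVF+, 7.20, 7.21, 7.35 and 7.27 in RVF and 6.85 to 7.25 in CON (median 7.14). It had -0.077 ± 0.082 in RVF+ and 0.17 ± 0.088 in RVF.

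Fzd8, Fzd5 and Fzd9 completed the receptors above background. Fzd8 was 5.79, 5.85, 6.06, 5.96 and 6.08 in RVF+, 6.32, 6.26, 6.40 and 6.03 in RVF and 5.76 to 6.50 in CON (median 6.29). Its difference of -0.26 ± 0.11 in RVF+ did not pass (adjusted p = 0.0977, limma), but did after quantile normalization (-0.31, adjusted p = 0.0419), with median centring (-0.31, adjusted p = 0.0465) and without CON 6 (-0.34, adjusted p = 0.0179). Fzd5 was 5.06, 5.00, 5.01, 5.52 and 4.98 in RVF+, 5.20, 4.87, 5.13 and 5.22 in RVF and 5.07 to 5.88 in CON (median 5.33). RVF+ 11 alone stood high in its group, and the RVF+ difference of Fzd5 was -0.28 ± 0.14 with it (adjusted p = 0.144) and -0.38 without it (adjusted p = 0.0410). Fzd9 was 3.87, 4.21, 3.76, 3.99 and 4.06 in RVF+, 3.98, 4.22, 4.27 and 4.27 in RVF and 3.91 to 4.24 in CON (median 3.99), with -0.075 and 0.13.

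Of the 4 Sfrp inhibitors, 3 were called higher and 1 lower in RVF+ (27.7% of all genes were called there), and 2 higher and 1 lower in RVF (17.1% of all genes). Their median difference was 0.94 in RVF+ and 0.99 in RVF, beside -0.012 and -0.0087 over all genes. With 4 genes this is a description of each member and not of Sfrp genes in general.

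Sfrp4, known from extracellular matrix and bone, rose most. CON ran from 3.61 to 5.01 with a median of 4.15, RVF+ was 4.84, 5.83, 5.09, 5.82 and 6.83, and RVF was 5.44, 6.16, 5.38 and 5.49. RVF+ 8 lay within the CON range and the other 8 arrays above it, and the lowest CON arrays were below the background line. Sfrp4 was 2.62-fold higher in RVF+ (1.39 ± 0.30, adjusted p = 0.00210, limma) and 2.51-fold higher in RVF (1.33 ± 0.32, adjusted p = 0.00813, limma). Without RVF+ 8 the first was 1.60, and without RVF 14, the highest of its group, the second was 1.15 (adjusted p = 0.0393).

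Sfrp1, an inhibitor that binds Wnt ligands directly, was also higher in both. CON ran from 6.27 to 7.16 with a median of 6.77, RVF+ was 7.15, 7.65, 8.21, 7.43 and 7.56, and RVF was 7.96, 8.41, 7.34 and 7.23. Only RVF+ 8 reached into the CON range, just under CON 6. Sfrp1 was 1.86-fold higher in RVF+ (0.89 ± 0.21, adjusted p = 0.00363, limma) and 2.04-fold higher in RVF (1.03 ± 0.22, adjusted p = 0.00370, limma). It was 1.01 in RVF+ without RVF+ 8, and 0.80 in RVF without RVF 14 (adjusted p = 0.0208).

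Sfrp2, which is known from fibroblasts of injured heart, had the widest controls. CON ran from 5.76 to 7.91 with a median of 6.19, RVF+ was 7.99, 7.98, 6.63, 7.43 and 7.19, and RVF was 7.20, 7.80, 7.18 and 7.46. CON 5 (7.91) and CON 1 (7.19) lay among the RVF+ and RVF arrays, and the other 5 CON arrays below all of them. CON 5 also had the highest adipocyte markers of any array, with a mean log2 intensity of 6.28 over 6 genes against 4.74 to 5.59 on the others, and the highest atrial markers (7.52). CON 5 and CON 1 were also the 2 highest CON arrays for fibroblast markers (8.31 and 8.26) and for macrophage markers (6.95 and 6.79). The part of these in their Sfrp2 values was not tested. The difference was 0.98 ± 0.33 in RVF+ (1.97-fold, adjusted p = 0.0334, limma) and 0.95 ± 0.35 in RVF (1.93-fold, adjusted p = 0.0737, limma).

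The Sfrp2 calls changed with several single arrays and settings. Without CON 5 the differences were 1.22 in RVF+ (adjusted p = 0.00256) and 1.19 in RVF (adjusted p = 0.00792), and the RVF difference of Sfrp2 also passed without CON 1 (1.07, adjusted p = 0.0496). The RVF+ call of Sfrp2 ended without CON 2, 3, 4, 6 or 7 (adjusted p from 0.0578 to 0.0672), without RVF+ 8, 9 or 11 (0.0829, 0.0872 and 0.0513), with array weights (0.0816) and with RVF+ and CON alone in the fit (0.0577).

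Sfrp5, whose promoter is the last of those printed, went the other way. CON ran from 4.64 to 5.26 with a median of 4.74, RVF+ was 4.34, 4.40, 4.31, 4.74 and 4.43, and RVF was 4.13, 4.26, 4.24 and 4.16. RVF+ 11 lay within the CON range and the other 8 arrays below it. Sfrp5 was 1.34-fold lower in RVF+ (-0.42 ± 0.11, adjusted p = 0.00617, limma) and 1.59-fold lower in RVF (-0.67 ± 0.11, adjusted p = 0.000525, limma), and the first was -0.40 without RVF+ 8. Its RVF arrays were close to the background line.

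**Figure D3:**
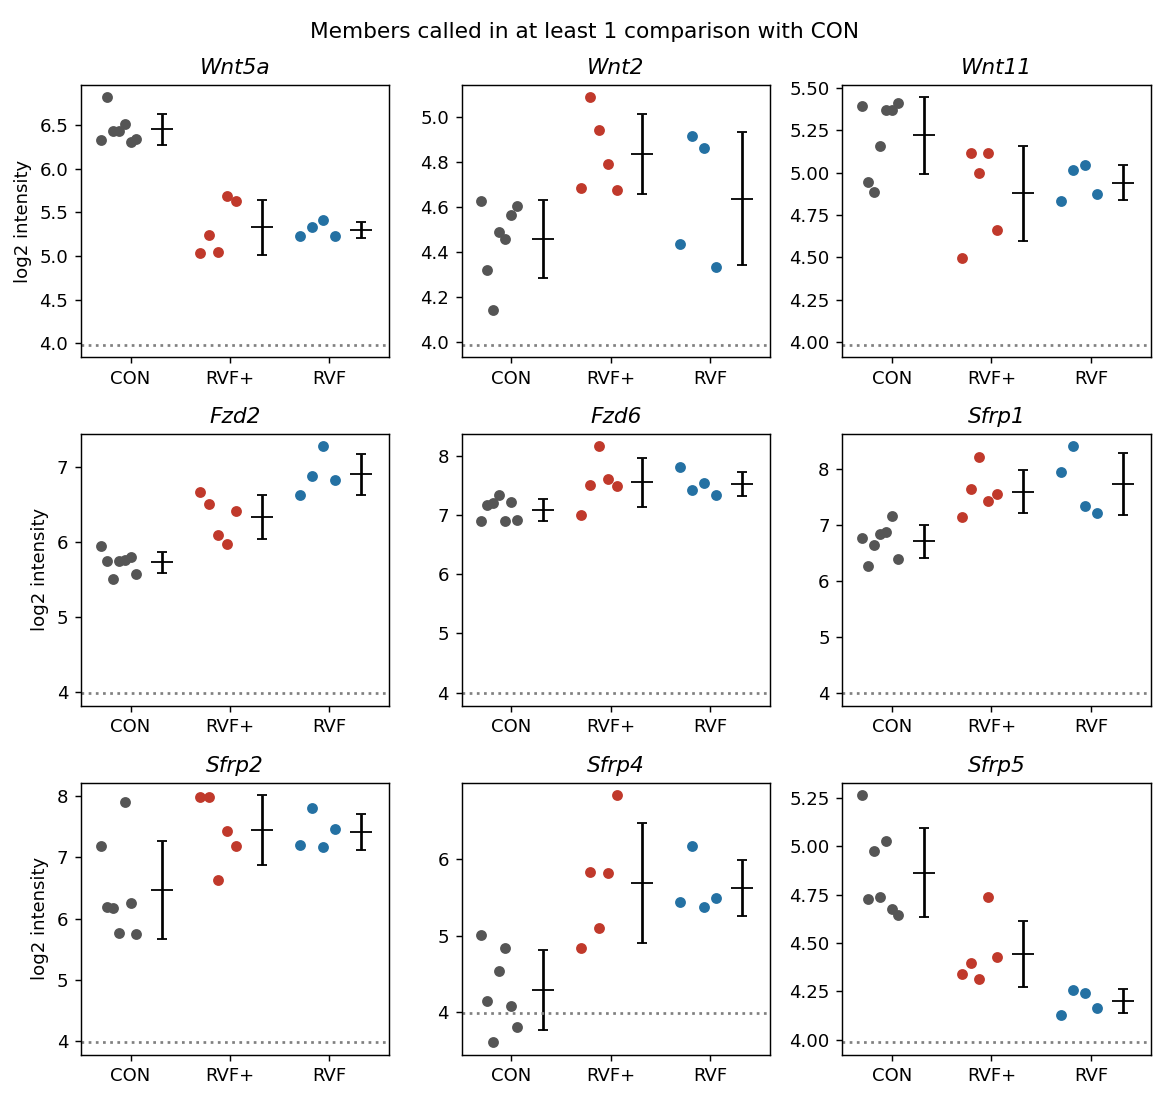
Log2 intensity of the 9 members called in at least 1 comparison with CON, 1 point per array, with the mean and SD beside each group (CON n = 7, RVF+ n = 5, RVF n = 4) and the background line of 3.99 dotted; each panel has its own axis. Wnt5a and Fzd2 separate all RVF+ and RVF arrays from CON, and none of the other panels does.

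Of the Dkk genes, Dkk3, a divergent member whose part in Wnt inhibition is unsettled, was well above background and not called. It was 8.51, 8.89, 9.20, 9.06 and 9.14 in RVF+, 9.44, 8.82, 8.92 and 8.98 in RVF and 8.87 to 9.21 in CON (median 9.02). The 95% interval of its difference from CON was -0.31 to 0.20 in RVF+ and -0.25 to 0.30 in RVF. Dkk2, an Lrp ligand, was 3.72, 4.56, 3.69, 4.73 and 3.82 in RVF+, 4.21, 3.57, 3.91 and 3.93 in RVF and 3.53 to 4.78 in CON (median 4.08), so its groups overlapped fully, with differences of 0.078 ± 0.22 and -0.12 ± 0.23.

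The direct comparison asks where RVF+ ventricles differed from RVF. No member was called, nor was any of the 17245 genes (limma, 0%). At an unadjusted p under 0.05 there were 3 members, all receptors and all lower in RVF+ (9.09% of members when counted so, with 7.20% of all genes), and the other runs of limma called none of the members either. Fzd2 was 1.48-fold lower in RVF+ than in RVF (-0.57 ± 0.14, 95% interval -0.87 to -0.27, unadjusted p = 0.000977, adjusted p = 0.403, limma), with 4 of 5 RVF+ arrays below all RVF arrays. Its adjusted p ran from 0.135 to 0.979 over the alternatives, so the difference failed the correction in each. Fzd1 had -0.24 ± 0.094 (adjusted p = 0.606), with 5 of 5 RVF+ arrays below all RVF arrays, which 1.15% of all genes showed. Fzd8 had -0.30 ± 0.13 (adjusted p = 0.636), with 3 of 5 below. For the inhibitors the intervals were wide: -0.63 to 0.37 for Sfrp1, -0.76 to 0.83 for Sfrp2 and -0.66 to 0.79 for Sfrp4, so differences within those bounds could not be resolved with these arrays. Sfrp5 had 0.25 ± 0.12 (95% interval -0.0098 to 0.50, adjusted p = 0.705), with 5 of 5 RVF+ arrays above all RVF arrays, as for 0.586% of all genes.

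Because tissue was measured in bulk, more cells of a type and more RNA per cell cannot be told apart. By group, fibroblast markers were higher where Sfrp1, Sfrp2 and Sfrp4 were, and Sfrp5 was lower. Of 12 markers, 9 were higher in RVF+ and 8 in RVF, with 0 lower. CON arrays had a mean log2 intensity of 7.94 to 8.31 over the list, RVF+ arrays 8.65 to 9.35 (9.35 on RVF+ 8, the others up to 9.03) and RVF arrays 8.84 to 9.07. Single arrays did not follow this throughout. RVF+ 8, the highest for fibroblast markers, had the lowest Sfrp1 (7.15) and Sfrp4 (4.84) of RVF+, but the highest Sfrp2 (7.99). RVF 16, the highest of RVF for fibroblast markers, had the lowest Sfrp1 of RVF (7.23). The 3 fibroblast markers not called in RVF+ were Pdgfra (-0.042 in RVF+ and -0.13 in RVF), Dcn (0.042 and 0.038) and Tcf21 (-0.083 and -0.099), and none of them was called in RVF, where Lum (0.41) was not called either. Of those called in both, the collagen gene Col1a1 had 0.79 in each, Dpt 0.32 and 0.40, Thy1 1.72 in each and the activation gene Postn 3.37 and 3.25. Macrophage markers were higher in 11 of 11 cases in RVF+ and 8 of 11 in RVF, and their means were 6.46 to 6.95 on CON arrays, 7.48 to 8.99 on RVF+ arrays (up to 8.02 without RVF+ 8) and 7.34 to 7.82 on RVF arrays. Ventricular cardiomyocyte markers were lower in 7 of 11 and 1 of 11 cases, with means of 11.78 to 11.88, 10.84 to 11.63 (10.84 on RVF+ 8) and 11.57 to 11.67. The part of these shifts in the differences of Wnt, Fzd and Sfrp genes was not tested.

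Smooth muscle and pericyte markers were higher in 4 of 11 cases in RVF+ and 3 of 11 in RVF, and endothelial markers in 2 and 0 of 9. Of 10 epicardial and mesothelial markers 1 was higher in RVF+ and 2 in RVF, with means of 4.43 to 5.03 on CON arrays, 4.55 to 4.90 on RVF+ arrays and 4.51 to 5.81 on RVF arrays and with Upk3b near background. The high value was RVF 14. Of the members above background, Sfrp1, Sfrp2, Sfrp4, Sfrp5, Fzd4, Wnt1, Wnt2, Wnt2b, Wnt3 and Wnt9a were also highest of RVF on that array. Some of these leads were small, as for Wnt3 (4.08 against 4.07 on RVF 15) and Sfrp5 (4.26 against 4.24 on RVF 15). The other members above background were highest on another RVF array. The share of all genes that were highest on RVF 14 was not counted, so this list has no baseline. The part of the epicardial and mesothelial markers in these values was not tested. Without RVF 14 the RVF differences were 0.80 for Sfrp1, 0.82 for Sfrp2 (adjusted p = 0.196) and 1.15 for Sfrp4. Of 7 atrial markers 3 were higher and 1 lower in RVF+, and 1 higher and 3 lower in RVF, with Bmp10 near background. Their list means overlapped (CON 6.49 to 7.52, RVF+ 6.87 to 7.30, RVF 6.79 to 7.11), while single genes moved in opposite directions. Nppa was higher by 4.26 in RVF+ and 4.57 in RVF. Myl7 (-1.52 and -1.93) and Sln (-1.49 and -1.86) were lower, called in RVF only. Tbx5 was lower in both (-0.68 and -0.67), and Gja5 (0.76) and Nr2f2 (0.42) were called higher in RVF+. The list mean thus does not show how much atrial tissue was present. Lymphocyte markers had 2 of 8 genes higher in each (all genes 14.1% in RVF+ and 8.86% in RVF), with Cd3d, Cd3g and Ms4a1 near background. In RVF+ these were Cd4 (0.86) and Cd79b (0.39), while Cd2, Cd3d, Cd3e, Cd3g and Cd8a were not called. Red cell markers had 3 of 5 higher in RVF+ (median difference 0.90) and 0 of 5 in RVF (limma, also 0 at an unadjusted p under 0.05), Schwann cell and neuron markers 2 of 8 higher and 1 lower in each (Snap25 near background), and adipocyte markers 0 of 6 in either (limma, also 0 at an unadjusted p under 0.05; Lep near background). Leaving out RVF+ 8, which also changes the shared spread, gave 4 of 11 ventricular cardiomyocyte markers lower, 4 of 10 epicardial markers higher, 4 of 8 lymphocyte markers higher and 1 lower, and 2 of 8 Schwann cell and neuron markers lower in RVF. It also gave 10 of 11 macrophage and 9 of 12 fibroblast markers higher in RVF. In RVF+ it gave 1 lymphocyte marker lower. There it also gave 3 of 9 endothelial, 3 of 11 smooth muscle and pericyte, 2 of 7 atrial and 4 of 5 red cell markers higher.

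The rest of the pathway was read from 7 lists with 140 genes, of which 122 were measured. The lists were written with earlier results of these data known. In RVF+ 19 were higher and 19 lower (31.1% called, all genes 27.7%), and in RVF 14 were higher and 11 lower (20.5%, all genes 17.1%). The median differences of -0.022 and 0.023 lay near those of all genes. By direction, 14.1% of all genes were higher and 13.6% lower in RVF+, and 8.86% and 8.29% in RVF. Counts in each list below are to be read beside these shares. No gene of these lists was called between RVF+ and RVF.

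At the cell surface, Ror1, a receptor tyrosine kinase that binds Wnt5a, was higher by 0.42 ± 0.087 in RVF+ (adjusted p = 0.00144, limma) and 0.61 ± 0.093 in RVF (adjusted p = 0.000195, limma). Gpc4, a heparan sulfate proteoglycan that holds Wnt ligands at the membrane, was lower by 1.78-fold and 1.61-fold. In that list of 10 measured co-receptors 1 was higher and 1 lower in RVF+, and 2 were higher and 1 lower in RVF, the second being the muscle kinase Musk (0.37 ± 0.12). The co-receptor Lrp5 (-0.24 ± 0.11 in RVF+) and the protease inhibitor Reck (0.23 and 0.17) did not pass. Among 10 genes of R-spondins, Lgr receptors and receptor turnover, 1 was higher and 2 lower in RVF+ and 0 and 2 in RVF. Rnf43, a ubiquitin ligase that removes Frizzled receptors, was 1.51-fold and 1.58-fold lower, and Rspo4, an R-spondin, 1.42-fold and 1.34-fold lower. Ndp, which encodes norrin, passed in RVF+ with 0.38 ± 0.12 at a near-background level, with 2 genes of the list higher there without RVF+ 8, and Lgr5 (-0.22 and -0.28) and Rspo2 (-0.27 in RVF), also near background, did not.

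Of 14 inhibitors outside the Sfrp and Dkk families, 2 were higher and 1 lower in both comparisons. Serpinf1, a secreted serpin reported to bind Lrp6, was 2.14-fold and 2.38-fold higher, Igfbp4, a secreted IGF-binding protein that can also block Frizzled and Lrp6, 1.94-fold and 1.73-fold higher, and Sostdc1, a secreted Lrp-binding antagonist, 1.76-fold and 1.75-fold lower. Tpbg (0.24 in RVF+) and Kremen1 (0.20 in RVF) did not pass. In the secretion list of 7 genes, Wls, the carrier of Wnt ligands to the surface, was lower by 0.20 ± 0.070 in RVF+ (adjusted p = 0.0441, limma) and had -0.042 in RVF. Atp6ap2, a proton pump subunit, was higher by 0.33 ± 0.11 in RVF+ (adjusted p = 0.0276), and had 0.15 in RVF. Vps35, which recycles Wls (0.18 and 0.23), the cargo receptors Tmed5 (0.14 in RVF+) and Tmed2 (-0.10 in RVF), and Porcn, which attaches the lipid (0.17 in RVF), did not pass. In RVF 0 of 7 genes of that list were called by limma, with 1 at an unadjusted p under 0.05. Without RVF+ 8 the list had 0 genes higher in RVF+, so that the Atp6ap2 call was lost, and 1 higher in RVF.

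Inside the cell, 3 of 36 genes of the canonical pathway were higher and 6 lower in RVF+, and 2 were higher and 2 lower in RVF. Tle3, a corepressor of TCF factors, was 1.40-fold higher in RVF+, and Cby1, a beta-catenin antagonist, and Pygo1, a beta-catenin coactivator, were 1.47-fold and 1.37-fold lower. Cxxc5, which restrains Dishevelled, was lower in both (-0.44 ± 0.11 and -0.40 ± 0.12). Nkd2, a Dishevelled antagonist, was higher in RVF by 0.58 ± 0.16. Btrc, a beta-catenin ubiquitin ligase subunit, was higher (1.15-fold and 1.18-fold) and Amer1, a scaffold of the destruction complex, lower (1.26-fold in each) in both. Without RVF+ 8, 3 genes of this list were higher and 4 lower in RVF. The beta-catenin gene Ctnnb1 had -0.022 (95% interval -0.17 to 0.13) in RVF+ and 0.055 (-0.10 to 0.21) in RVF.

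Of 21 genes known as targets of the canonical branch, 8 were higher and 2 lower in RVF+ (all genes 14.1% and 13.6%). In RVF 5 were higher and 2 lower (all genes 8.86% and 8.29%). The matrix genes Fn1 (3.31-fold and 2.14-fold) and Vcan (2.28-fold and 1.88-fold) and the matricellular gene Ccn5 (3.06-fold and 4.62-fold) led the higher ones, with the cyclin gene Ccnd1 1.94-fold higher in RVF (adjusted p = 0.000170, limma). Most fibroblast markers were higher in both groups too, and the part of that shift in these genes was not tested. Tnfrsf19, a receptor of the TNF family, was 2.48-fold and 2.34-fold lower, and Rnf43 belongs to this list too. Axin2, the most widely used readout of the branch, was not called: it had -0.26 ± 0.14 in RVF+ (adjusted p = 0.183) and -0.43 ± 0.15 in RVF (adjusted p = 0.0577, limma).

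In the polarity and calcium branch 3 of 29 genes were higher and 7 lower in RVF+ (all genes 14.1% and 13.6%). In RVF 3 were higher and 4 lower (all genes 8.86% and 8.29%). Celsr1, a polarity cadherin, was 1.90-fold and 1.80-fold lower, Camk2a, a calcium/calmodulin kinase gene, 1.74-fold and 1.45-fold lower, and the kinase gene Mapk9 was lower too (-0.33 and -0.27). Daam1, a formin that binds Dishevelled, was higher by 0.47 ± 0.12 and 0.66 ± 0.13, and the protein kinase C gene Prkca by 0.26 ± 0.070 in RVF.

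**Figure D4:**
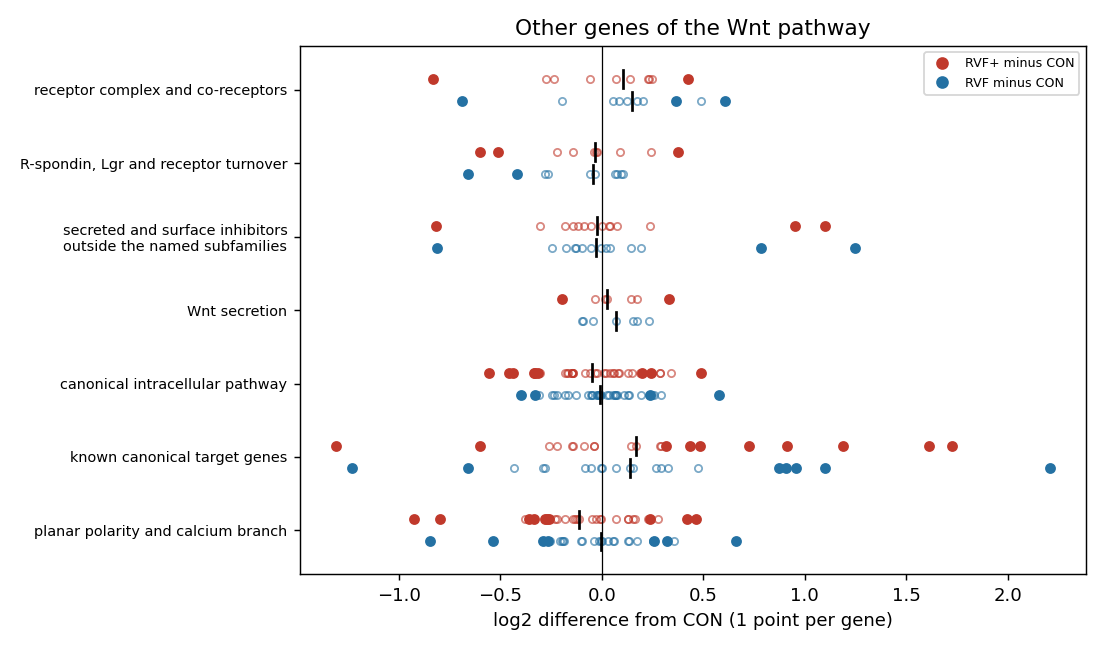
Log2 difference from CON of 122 other genes of the pathway in 7 lists, in RVF+ (red) and RVF (blue), filled where the adjusted p was under 0.05, with a black bar at each list's median. The medians lie between -0.11 and 0.17, and Ccn5 at 2.21 in RVF and Tnfrsf19 at -1.31 in RVF+ lie farthest out; 5 genes stand in more than 1 list.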

How the data were processed

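RNA of 16 right ventricular samples (7 CON, 5 RVF+ and 4 RVF by their labels) was hybridised to Affymetrix arrays. The authors deposited 1 intensity per probe set, made with RMA per the submitters' processing notes. The software and array annotation used for this are not stated in the labels. The deposited intensity values ran from 2.202 to 10294 on a linear scale and were turned to log2 here, with no pseudocount. Precision is limited by how many arrays there are.

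Of 29214 probe sets 18644 had exactly 1 symbol, 962 several and 9608 none. Dkk4 shares its probe set with another symbol and was not analysed here. The highest-mean probe set was kept per gene, which left 17245 genes. RefSeq's table (GRCr8) matched 18460 identifiers and changed 0 symbols. Group means were fitted to all arrays with limma 3.58.1 in R 4.3.3 (13 residual and 4.45 prior degrees of freedom), and p-values were adjusted by Benjamini-Hochberg. The procedure was tested on simulated data. Promoter sequences came from RefSeq.

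Members, gene lists and tests were chosen with earlier results of these data known. Per-array values are given for members above background or called, and in each pathway list the 4 genes with the smallest p in each comparison with CON are named. Ctnnb1, Axin2 and the marker genes named were chosen after their values were seen. Alternatives were quantile normalization, median centring, filters on dim genes, other uses of probe sets, fits on the compared groups, trend and robust moderation, array weights and leaving out each array.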

Additional observations from a re-analysis of the deposited data

Results flagged for a closer look

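In 69 tests, 1 for each group of each of the 23 members above background, 6 arrays lay far from the rest of their group by the gap to the nearest array relative to the group's range. Chance gives about 1 in 20. None of them was RVF+ 8. RVF+ 11 was high within RVF+ for Fzd5 (5.52, the next 5.06) and Sfrp5 (4.74, the next 4.43). RVF 14 was high within RVF for Sfrp4 (6.16, the next 5.49) and Wnt2b (4.76, the next 3.96). CON 2 was high within CON for Wnt5a (6.82, the next 6.51), and CON 3 for Wnt1 (4.09, the next 3.99).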

How the results depend on the processing

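Of the 14 called differences, 10 kept direction and call under every alternative in which the gene was tested: both for Wnt5a, Fzd2, Sfrp1, Sfrp4 and Sfrp5. Those of Fzd6, Sfrp2, Wnt11 and Wnt2 in RVF+ were each lost under at least 1, as given above. No called difference changed sign. Of the 55 differences not called among the 23 members above background, 5 gained a call under some setting. Leaving out 1 array gave 4 to 6 members higher and 2 to 4 lower in RVF+, and 3 to 4 higher and 2 lower in RVF. Median centring gave 5 members higher and 5 lower in RVF+, where 6 and 3 had been called, adding Fzd8 and the near-background Wnt5b (-0.36, adjusted p = 0.0476, limma) and losing Fzd6. It moved the median of all genes from -0.012 to -0.060. With only genes at or above the median level tested, 1 member was lower in RVF+ and 1 in RVF, since Sfrp5 and Wnt11, like Sfrp4 and Wnt2, were then not tested. Members above background numbered 9 with the line at the median of all genes and 14 at the 99th percentile of the sensory receptors. No paired analysis was run because the labels state no pairing of samples between groups. Dim signal limits most Wnt ligands, which lay within the range of sensory receptor genes.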
